A study of Drosophila melanogaster with 2 samples.

Results

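The 10 genes described here serve the moving replication fork of Drosophila melanogaster: PCNA, Gnf1, RfC3, RfC4, RfC38, RPA2, Fen1, RnrL, RnrS and Ts. They were taken by name, all 10 matched, and they belong to the 13945 protein-coding genes of the 6 chromosome arms. DREF binding was mapped by ChIP-seq, which sequences the DNA that comes down with an immunoprecipitated protein, in 1 group, whole embryos aged 0 to 24 hours from transgenic flies that express Dref fused to eGFP, with an antibody against GFP. The group has 2 biological replicates, per the labels, and no second genotype, treatment or stage. The binding is therefore that of the tagged protein, averaged over all embryonic cells, and fewer bound cells cannot be told apart from weaker binding per cell. The data are lists of peaks with a deposited signal for each, in arbitrary units. The number of reads behind a value is unknown.

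PCNA is the ring that holds DNA polymerases on the template. Replication factor C loads it, and Gnf1 encodes the large subunit of this loader while RfC3, RfC4 and RfC38 encode small subunits. RPA2 encodes a subunit of replication protein A, which coats single-stranded DNA at the fork, and Fen1 encodes the flap endonuclease that trims Okazaki fragments. RnrL and RnrS encode the large and small subunits of ribonucleotide reductase, the source of deoxyribonucleotides, and Ts encodes thymidylate synthase. DREF recognises an 8 base palindrome, the DNA replication-related element (DRE), and PCNA is among the genes in which this element was first studied.

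The bases before the starts of 7 genes are shown here because the match to the DRE differs between them. Each line reads 5′ to 3′ on the strand of the gene (RefSeq copy of the Release 6 assembly, dm6). Capitals mark a full DRE, or a site that differs from it in 1 end base. For RfC38 a stretch of 30 bases is given, and for the others the 120 bases that end just before the start. Gnf1, RfC3, RfC4, RfC38 and Ts had a peak, and RPA2 and RnrL had none. PCNA, RnrS and Fen1 are not printed.
Gnf1: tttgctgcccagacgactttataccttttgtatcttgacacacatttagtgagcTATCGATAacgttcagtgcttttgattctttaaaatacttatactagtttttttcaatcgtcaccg
RfC3: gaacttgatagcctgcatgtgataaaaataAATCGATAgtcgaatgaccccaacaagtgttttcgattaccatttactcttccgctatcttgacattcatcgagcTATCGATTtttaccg
RfC4: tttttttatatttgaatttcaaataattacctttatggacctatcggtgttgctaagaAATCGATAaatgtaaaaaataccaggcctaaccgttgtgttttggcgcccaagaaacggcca
RfC38: aaacctctaaaCATCGATAtcacagcgtag
Ts: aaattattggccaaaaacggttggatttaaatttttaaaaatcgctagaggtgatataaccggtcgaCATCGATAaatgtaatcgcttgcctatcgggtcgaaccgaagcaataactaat
RPA2: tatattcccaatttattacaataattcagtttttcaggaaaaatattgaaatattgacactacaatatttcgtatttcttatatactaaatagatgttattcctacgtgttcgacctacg
RnrL: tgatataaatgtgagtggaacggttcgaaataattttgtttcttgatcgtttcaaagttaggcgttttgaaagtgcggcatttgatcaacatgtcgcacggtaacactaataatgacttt

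In genome coordinates of dm6, the Gnf1 stretch is chr3R:4906502-4906621 on the plus strand and the RfC3 stretch is chr2L:10419070-10419189 on the plus strand. The others lie on the minus strand, RfC4 at chr3L:4136039-4136158, RfC38 at chr2L:11130331-11130360, Ts at chr2L:2969639-2969758, RPA2 at chr2L:20926148-20926267 and RnrL at chr2L:10327944-10328063. None of the 120 base stretches overlaps an annotated exon. The RfC38 stretch lies in the 5′ untranslated exon of the longer RfC38 transcript.

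A gene was taken as bound when the summit of a peak of the conservative list lay within 250 bp of any annotated start of the gene. By this rule 7 of the 10 genes were bound, against 30.6% of all protein-coding genes (4272 of 13945). The sliding clamp gene, all 4 clamp loader genes of the set, Ts and RnrS had a peak, and RPA2, Fen1 and RnrL had none. Each of the 7 genes was also bound in the list of replicate 1 alone, where 26.9% of all genes were, and in that of replicate 2 alone, where 28.7% were. The bound gene farthest from its summit was RnrS, at 142 bp, and the unbound gene nearest to a summit was Fen1, at 739 bp. No other annotated gene had a start within 250 bp of any of the 7 summits.

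The count changed little with the rule. With summits within 100 bp of a start 6 of the 10 genes were bound, against 25.6% of all genes, and within 500 bp 7 were, against 34.5%. Requiring the peak to overlap the start gave 6, against 27.8%, and keeping only peaks above the median signal gave 6, against 21.4%. The thresholded list that is not the conservative one gave 7, against 31.4%, and so did peaks with a q-value of at most 0.05, against 28.0%. RnrS was the gene lost wherever 6 were counted.

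The clamp gene PCNA had a signal of 1021 in replicate 1 and 1653 in replicate 2. In the conservative list it had 2666 and ranked 510 of 5355 peaks. Its peak covers 311 bp, at positions 20262758 to 20263068 of 2R, and the summit lay 21 bp upstream of the more upstream of its 2 annotated starts. The replicates placed the summit 22 and 19 bp upstream of that start. An exact DRE was centred 2.5 bp from the summit.

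RfC3, a small subunit gene of the clamp loader, had the strongest peak of the set. Its signal was 1217 in replicate 1, 2114 in replicate 2 and 3309 in the conservative list, where it ranked 306. The summit lay 42 bp upstream of the start, at position 10419148 of 2L. It fell between a pair of imperfect sites that begin 90 and 15 bp upstream of the start. The first is the DRE with the change T1A and the second carries A8T, counting from the 5′ base of the DRE on the gene strand. Because the DRE is a palindrome, these are the same sequence read on opposite strands.

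The other 3 loader genes had signals within a narrower range. RfC4, a small subunit gene, reached 535 in replicate 1, 919 in replicate 2 and 1440 in the conservative list. Its summit lay 44 bp upstream of the start, and the DRE with T1A begins 62 bp upstream. RfC38, also a small subunit gene, had 449 in replicate 1, 799 in replicate 2 and 1249 in the conservative list. This gene has 2 annotated starts, and the summit sat 3 bp upstream of the inner one, in the 5′ untranslated exon of the longer transcript. CG4751, which starts 92 bp from the outer RfC38 start on the opposite strand, was not bound.

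Gnf1, the large subunit gene, had 399 in replicate 1, 709 in replicate 2 and 1107 in the conservative list. It carries an exact DRE that begins 66 bp upstream of the start, with its centre 28.5 bp from the summit. A further peak of the conservative list, with a signal of 204 and a width of 94 bp, lay upstream of it at positions 4905944 to 4906037 of 3R. Among the 4 loader genes RfC3 had the highest signal in each replicate, and the signals of Gnf1 and RfC38, the lowest, differed by less than the spread between replicates.

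Ts, which makes thymidylate, was bound with a signal of 809 in replicate 1, 1256 in replicate 2 and 2042 in the conservative list, behind RfC3 and PCNA. The summit lay 47 bp upstream of the start, and the DRE with T1C was centred 2.5 bp from it. RfC38 carries the same T1C change, in a site centred 25.5 bp from its summit.

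The reductase genes differed from Ts and from each other. RnrS had a signal of 87.9 in replicate 1, 131 in replicate 2 and 214 in the conservative list, the lowest of the 7, and ranked 2936 of 5355. Its deposited q-value was 0.00467 in replicate 1, 0.000494 in replicate 2 and 0.000824 for both together. The replicates placed the summit 167 and 125 bp upstream of the start, 42 bp apart, against 11 bp or less for the other 6 genes. Farther upstream the conservative list held peaks 342 and 569 bp from the RnrS start, with signals of 70.9 and 74.9 and q-values of 0.608 and 0.506. The outer of these lay 46 bp from the start of CG34231, a gene on the opposite strand. RnrL had no peak in any list within 250 bp of its start, and the nearest summit of the conservative list was 5698 bp away.

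The fork genes RPA2 and Fen1 were not bound. At RPA2 the ranked list of both replicates, which also holds peaks that did not pass the threshold, had a summit 220 bp inside the gene with a signal of 9.47, under the median of 29.1 for that list. Its score was 102, and the lowest score in the conservative list is 830. The ranked list of replicate 2 had a summit with a signal of 9.58 there, and that of replicate 1 had none within 250 bp. At Fen1 no ranked list had a summit within 250 bp of the start. The peak 739 bp upstream, with a signal of 409, lay 17 bp from the start of Dek, the divergent neighbour of Fen1.

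**Figure D1:**
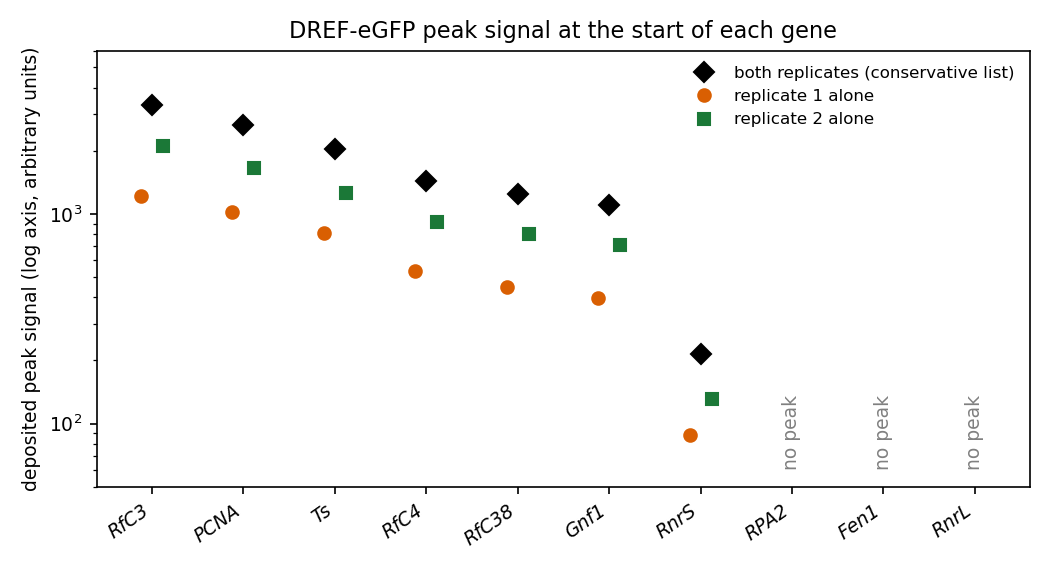
Deposited peak signal (log axis, arbitrary units) at each of the 10 genes in the list of both replicates (diamonds), replicate 1 alone (circles) and replicate 2 alone (squares). RfC3 has the highest value and RnrS the lowest in all 3 lists, and RPA2, Fen1 and RnrL have no peak of these lists within 250 bp of a start.

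The order of the 7 bound genes by signal was identical in the 2 replicates: RfC3, PCNA, Ts, RfC4, RfC38, Gnf1 and RnrS. The conservative list has this order too, but it was made from both replicates and its signals were 0.975 to 1.00 times the sum of theirs, so it adds no separate evidence. Replicate 2 exceeded replicate 1 at all 7 genes, by a factor of 1.49 at RnrS to 1.78 at RfC38. The median factor over the 3557 bound genes present in both replicate lists was 1.60, with quartiles of 1.466 and 1.717. These factors differed by up to 1.192 times between the 7 genes, and by up to 1.145 times without RnrS, the weakest peak. This range was taken as the spread between replicates. It comes from the same few genes that are judged by it, so it is only a rough guide. The step between RfC38 and Gnf1, 1.13 times in each replicate, was smaller than this spread with and without RnrS, so these neighbours do not differ beyond it. The step between RfC4 and RfC38, 1.191 times in replicate 1 and 1.151 times in replicate 2, lay between the 2 limits, and whether it exceeds the spread depends on RnrS. The step between Gnf1 and RnrS, 4.54 times in replicate 1 and 5.41 times in replicate 2, was well beyond it. RfC3 exceeded PCNA by 1.192 times in replicate 1, equal to the wider limit, and by 1.279 times in replicate 2.

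Against all bound genes, 6 of the 7 had a signal above the median, which was 908. RfC3 was at or above 91.3% of bound genes, PCNA 85.7%, Ts 77.1%, RfC4 65.4%, RfC38 60.5% and Gnf1 56.2%. RnrS, at 23.6%, lay below the lower quartile of 228. Every summit of the 7 lay upstream of its nearest start, as did 89.7% of those of all bound genes. For 6 of the 7 it was at most 50 bp away, against 59.1% of all bound genes.

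**Figure D2:**
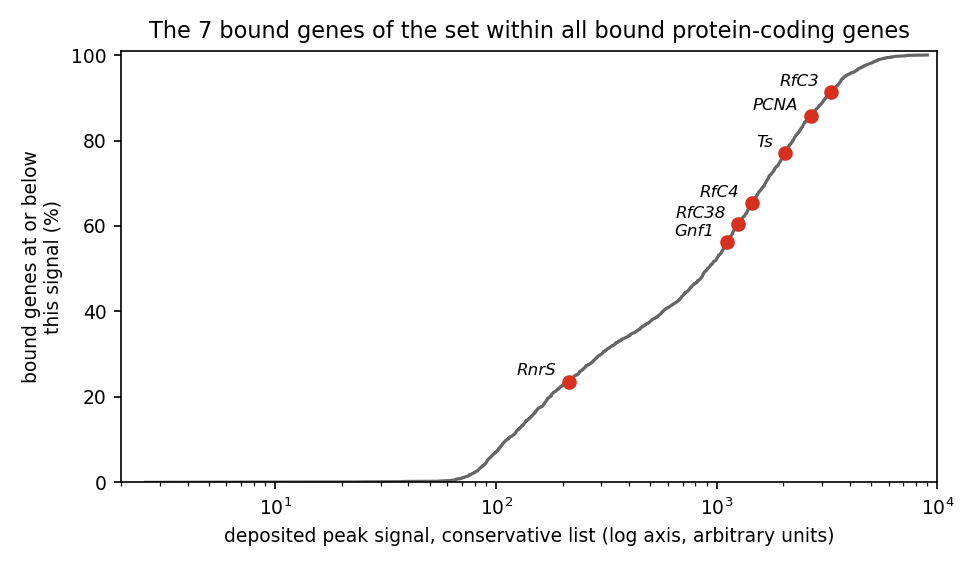
Cumulative share of all bound protein-coding genes (vertical axis, percent) by deposited signal in the conservative list (horizontal log axis, arbitrary units), with the 7 bound genes as points. RnrS lies at 23.6% and the other 6 between 56.2% and 91.3%.

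The DRE, TATCGATA, was searched on both strands within 100 bp of each summit. It was present at 2 of the 7 genes, PCNA and Gnf1, and at 27.0% of the 3406 summits of all bound genes. RfC3, RfC4, RfC38 and Ts instead held a site with 1 changed end base that keeps the inner palindrome ATCGAT, a class that made up 21.9% of all those summits. With ATCGAT alone as the motif, 6 of the 7 genes had a match, against 53.9% of summits. RnrS had neither, like 38.1% of summits that held no site within 1 mismatch of the DRE and no ATCGAT. The shorter motif CGATA, which BEAF-32 recognises, is part of the DRE and, on 1 strand, of any site with 1 changed end base. It was at the same 6 genes, where it follows from the sites above, and at 75.7% of summits. Counting any site within 1 mismatch of the DRE also gave these 6 genes, against 57.8% of summits.

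Over all bound genes, the summits with a changed end base had a median signal of 1636, with quartiles of 904 and 2668. Summits with an exact DRE had a median of 1696, with quartiles of 1005 and 2625. RfC3 and PCNA lay above the upper quartile of their classes. Ts lay between the median and the upper quartile of its class, and RfC4, RfC38 and Gnf1 below the median of theirs. Summits with no site and no inner palindrome had a median of 185, with quartiles of 112 and 441, and the RnrS signal of 214 fell between these. The end base variants found here, A or C in the first position or their complements in the last, occurred at 63.6% and 39.9% of the summits with a changed end base. Where ATCGAT was present, its centre lay a median of 15.5 bp from the summit over 1836 summits, and from 2.5 to 30.5 bp at the 6 genes.

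**Figure D3:**
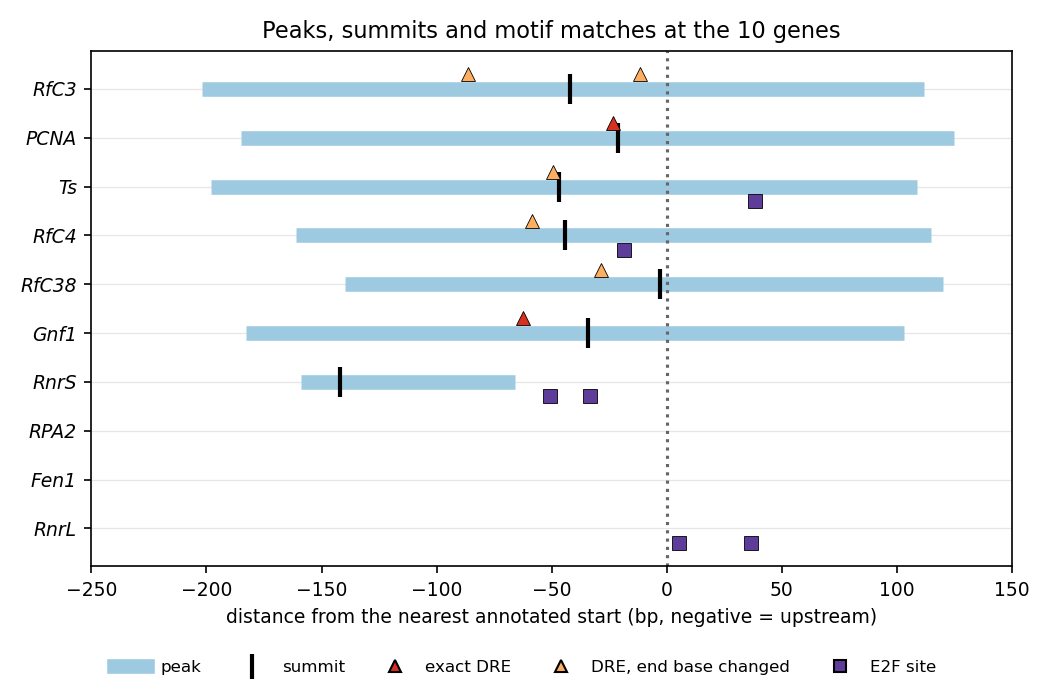
Peaks (bars), summits (black ticks), exact DRE and end-changed DRE (triangles) and E2F sites (squares) at the 10 genes, by distance from the nearest annotated start (bp, negative upstream). Every triangle lies within 44.5 bp of the summit, at 6 genes, while RnrS, RPA2, Fen1 and RnrL have none in the range drawn.

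In the window from 250 bp before to 50 bp after a start, an exact DRE was found at 2 of the 10 genes and at 10.2% of all protein-coding genes. It was at 29.0% of bound and 1.82% of unbound genes. ATCGAT was in this window at the same 6 of the 10 genes and at 26.3% of all genes, and it was not in that of RnrS, RPA2, Fen1 or RnrL. RnrL held an inner change, C4T, in a site 185 bp upstream, and with it 7 of the 10 genes had a site within 1 mismatch of the DRE, against 31.0% of all genes. CGATA was in the window of the 6 genes with ATCGAT, whose sites contain it, and of 53.0% of all genes.

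Sites of E2F, the transcription factor of S phase genes, were searched as TTTCGCGC, TTTGGCGC, TTTCCCGC and TTTGCCGC on both strands. They occurred in the start window of 4 of the 10 genes, RnrL, RnrS, RfC4 and Ts, and of 8.69% of all protein-coding genes. Within 100 bp of the summit they were at 3 of the 7 bound genes, RfC4, RnrS and Ts, and at 6.37% of all summits of bound genes. Both reductase genes carried 2 such sites, RnrS at 54 and 37 bp upstream and RnrL at 2 and 33 bp inside the gene. PCNA held no exact match to these letters in the window. The TATAAA box was in the window of 5 of the 10 genes and of 51.2% of all genes. Motif 1, GGTCACACT, was in that of RfC38 alone and of 6.78% of all genes. At RfC38 it was in the window of the outer start, not in that of the inner start where the summit lay. A scrambled DRE, ATACGTAT, was in none of the 10 and in 0.696% of all genes. Near the 7 summits TATAAA was at 3 genes, against 25.0% of summits, motif 1 at none, against 9.19%, and the scrambled DRE at none, against 0.352%. These matches describe letters, and no occupancy by factors other than DREF was measured.

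Other genes of the same pathways were taken from lists written from general knowledge. Of 18 further fork and clamp genes 11 were bound (61.1%), against 30.6% of all protein-coding genes, with a median signal of 460, against 908 for all bound genes. In the lists of both single replicates 10 of the 11 were also bound. Top2 (4643) and Top1 (3569), the topoisomerases, led, followed by timeout (2838), Hus1-like (2317), a subunit of the checkpoint clamp, and Rad17 (566), of the loader of that clamp. An exact DRE was at the summit of 1 of the 11, Top2, against 27.0% of the summits of all bound genes. Of the 7 unbound genes the first by name were Ctf4, Dna2, elg1, PCNA2 and Rad9, so PCNA2, the paralogue of PCNA, had no peak. Hus1-like shared its summit with ctrip. Of the weaker bound genes, DNAlig1, rnh1 and Rad1 shared theirs with DCP1, drosha and Sws1, and are named for that reason. A shared summit cannot be assigned to either gene alone.

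The remaining replication protein A genes were looked at after their values were seen. RPA1, the large subunit gene, had a weak peak of 41.1 in replicate 1, 81.9 in replicate 2 and 123 in the conservative list. RPA3, the small subunit gene, had a summit of 1101 in the conservative list at 263 bp from its start, just outside the limit of 250 bp. In replicate 1 the summit there, with a signal of 408, fell within the limit. Met starts on the opposite strand at the same summit.

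Of 19 further nucleotide synthesis genes 9 were bound (47.4%), against the same 30.6% of all genes, with a median signal of 461, against 908 for all bound genes. Only 6 of the 9 were also bound in the lists of both single replicates. r-l (3067), the enzyme gene that completes UMP synthesis, Prat (1977), of the first step of purine synthesis, and dUTPase (1911), which removes dUTP, led. Dhod (890), of pyrimidine synthesis, and dnk (461), the deoxyribonucleoside kinase gene, followed. dUTPase shared its summit, 204 bp from its start, with Art8, Dhod shared its summit with Sys1, and dnk shared its summit with Smu1. The weaker bound gene ras, named for that reason, shared its summit with lncRNA:CR44766. The first unbound genes by name were Adk1, Adsl, Adss, bur and Ctps. Exact DREs were at the summits of 2 of the 9, dUTPase and Prat, against 27.0% of all summits of bound genes, and the strong peak of r-l held neither a site within 1 mismatch nor ATCGAT.

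**Figure D4:**
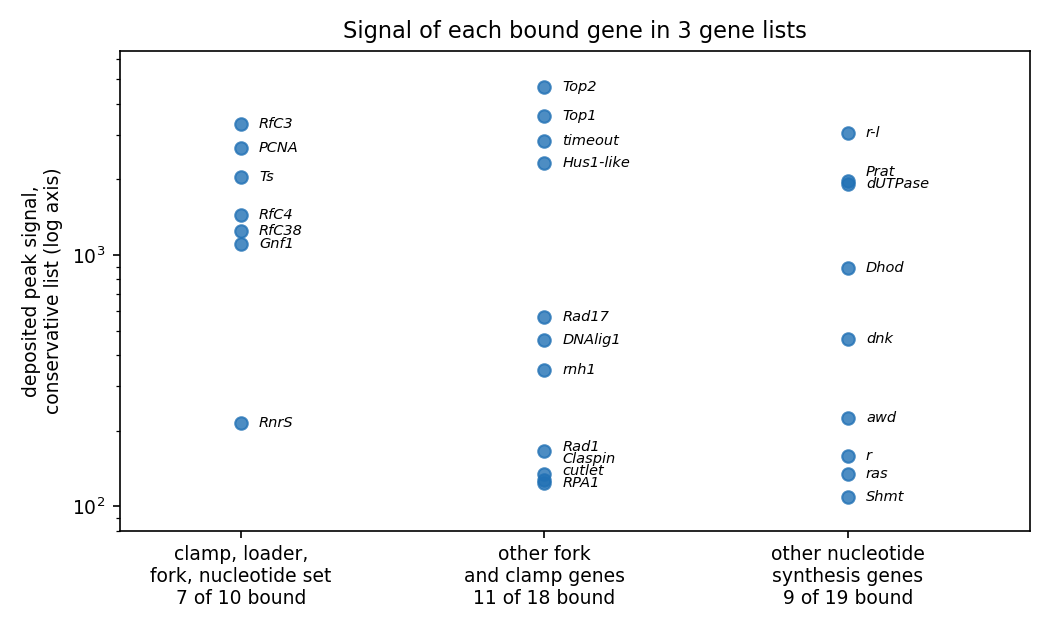
Deposited signal in the conservative list (log axis, arbitrary units) of each bound gene among the 10 genes (left), the other fork and clamp genes (middle) and the other nucleotide synthesis genes (right), with the number bound below each list. Of the 10 genes 7 are bound, against 11 of 18 and 9 of 19, and RnrS stands apart from the other 6.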

How the data were processed

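The 2 replicates form 1 group, and no test between conditions was possible. Per the notes that accompany the files, the authors deposited lists of peaks ranked or thresholded by the irreproducible discovery rate, from each replicate alone and from both together, in dm6. The deposited signal of a peak is the authors' measure of its strength, and whether it is scaled for depth is not given in the sources used here, nor are the aligner and peak caller. The deposited score (ceiling 1000) and −log10 q-value were used as written, and 8 further columns of the ranked list were not used. Starts came from Ensembl release 115 (BDGP6.54), whose arms match dm6 in the genome copy used. A gene took its strongest summit within 250 bp of a start. Motifs were exact matches unless said. The bound call was checked on simulated plus strand genes with 1 start. The search for exact, end-changed and inner-changed DREs was checked on simulated sequences of C and G. Minus strand genes, genes with several starts and the other motifs were not part of this check. No set test was run: counts stand beside the share over all genes. Python 3.11.15 with pandas 2.3.3 was used.

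The genes, lists and rules were chosen with earlier results of these data known. Named genes are the 10, their neighbours at the same summit or divergent within 1000 bp, and of each list the 5 strongest bound and first 5 unbound by name. Exceptions are marked in the text. Of the symbols listed, Tipin and RNaseH2A matched no gene symbol and were left out, and 1 nucleotide synthesis gene is not reported here and is in no count of its list.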

Additional observations from a re-analysis of the deposited data

How the results depend on the processing

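The number of the 10 genes bound was 6 or 7 under every alternative tried: other distances to the start, overlap of the peak with the start, the thresholded list that is not the conservative one, only peaks with a q-value of at most 0.05 or above the median signal, each replicate alone, and RefSeq starts, an alternative chosen after seeing the data. Of 80 single-gene calls 3 changed, all at RnrS, which was lost with summits within 100 bp, with overlap of the start and with peaks above the median signal. Summit distances shifted when replicate 2 or replicate 1 was left out. RnrS went from 142 to 167 or 125 bp upstream, Ts from 47 to 45 or 34, and RfC4 from 44 to 35 or 44. RfC3 went from 42 to 50 or 43, Gnf1 from 34 to 29 or 27, PCNA from 21 to 22 or 19, and RfC38 from 3 to 3 or 4. Leaving out a replicate kept 7 genes bound. Without replicate 2, 18 of the 37 other pathway genes were bound (48.65%), against 26.89% of all genes (3750). Without replicate 1 it was 17 (45.95%), against 28.73% of all genes (4006). Both replicates together gave 20 (54.05%), against 30.63%. With only peaks above the median signal the other pathway genes fell to 12 (32.43%), and the share of all genes fell to 21.41%. An exact DRE stayed at 2 genes with windows of 50 and 250 bp, in each replicate and around the start, a window chosen after seeing the data. The share of all summits with a DRE was not computed for the windows of 50 and 250 bp or for single replicates. Nor was the share of all genes bound computed for RefSeq starts. Whether these shares moved is therefore unknown. With 1 mismatch allowed the count was 6, against 57.8% of the summits of all bound genes. With ATCGAT in its place it was 6, against 53.9%. Both motifs are looser than the exact DRE. No paired analysis was possible because there is 1 group. Read depth is unknown, so no interval is given for any signal, and with 2 replicates a difference between genes is judged only by its size in each.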
